A study of Mus musculus with 12 samples.

Results

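RNA that stayed on beads without antibody (Beads Only, BO) was compared with the RNA of the extract the beads were placed in (INPUT), which measures the non-specific background of the pulldown. The members were the 3 BO and 3 INPUT libraries, 6 of the 12 libraries of the series. They were described over 1180 of 1528 repeat subfamilies, those with a mean normalized count of at least 10, and over 12768 of 20981 genes, those with group means above 10. The sample labels alone set which libraries belong, and no measured value entered that rule. The comparison itself was chosen with earlier results of these data known.

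All libraries came from testes of C57BL/6 Mael-/- mice aged 3 months, a strain in which loss of Maelstrom, a protein of the piRNA pathway, releases LINE-1 (L1) retrotransposons in male germ cells. Lysates were brought to 10 mM EDTA, which takes ribosomes apart, and spun through a sucrose gradient, and fractions 5 to 8 were pooled as INPUT. Portions of INPUT were incubated with Dynabeads coupled in buffer alone (BO) or with an antibody to the L1 protein ORF1p (IP). Ribosomal RNA was depleted with Ribo-Zero and stranded libraries were made with the TruSeq Stranded Total RNA kit. By the paper's methods, INPUT libraries started from a fixed amount of RNA. BO libraries started from whatever RNA was held in the volume taken for the matching IP. Starting amount therefore cannot be told apart from the difference between BO and INPUT. No sample of a Mael+/+ animal was analysed here, so each result holds for knockout testis extract. The labels do not say whether the 3 libraries of a group came from separate animals, and p-values therefore measure the spread between these libraries, which may be technical.

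A pulldown without antibody keeps RNA that sticks to the bead surface, RNA in large particles that sediment or stick with the beads, and liquid carried through the washes. Cytosolic extracts hold RNA in many kinds of particle. Signal recognition particle (SRP), built on 7SL RNA, directs nascent secreted proteins to the endoplasmic reticulum. The 7SK particle restrains transcription elongation, U1, U2 and U4 RNA belong to the spliceosome, U3 acts in ribosome assembly, and Y RNAs are short RNAs bound by Ro60. Messenger RNPs differ in length, in base composition and in the proteins bound to their 3′ untranslated regions (UTRs). Retrotransposon RNA is found in RNPs of its own and also as fragments of elements embedded in the UTRs and introns of host transcripts, which repeat counts do not separate.

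A few transcripts that the results below turn on, short noncoding RNAs and mRNAs from either end of the gene comparison, are printed 5′ to 3′ on the transcript strand, in lower case with each G and C in capitals. Sequences and positions are from GENCODE M21 on GRCm38, the assembly called mm10, which the authors mapped to. The first 3 are whole short noncoding RNAs that were scarce on beads. Rmrp, the RNA of the RNase MRP ribonuclease, lies at chr4:43492783-43493063 on the minus strand. The Y RNA genes Rny1 (chr6:47788069-47788180, minus strand) and Rny3 (chr6:47781624-47781725, plus strand) are the GENCODE genes for RNAs of the HY1 and HY3 type, which the repeat comparison measured. G and C made up 63.7% of Rmrp, 43.8% of Rny1 and 45.1% of Rny3, so the scarce short RNAs were not all rich in G and C.
Rmrp: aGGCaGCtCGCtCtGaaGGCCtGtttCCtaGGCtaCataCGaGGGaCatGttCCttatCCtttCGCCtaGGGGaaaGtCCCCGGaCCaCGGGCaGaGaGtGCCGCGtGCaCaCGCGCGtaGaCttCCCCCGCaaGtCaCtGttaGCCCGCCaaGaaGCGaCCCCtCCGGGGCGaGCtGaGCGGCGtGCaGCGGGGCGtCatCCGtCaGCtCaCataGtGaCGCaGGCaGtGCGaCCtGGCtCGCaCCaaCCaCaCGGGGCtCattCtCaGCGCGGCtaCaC
Rny1: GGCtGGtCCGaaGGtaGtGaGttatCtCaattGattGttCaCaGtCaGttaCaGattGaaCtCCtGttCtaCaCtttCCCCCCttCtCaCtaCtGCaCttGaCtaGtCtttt
Rny3: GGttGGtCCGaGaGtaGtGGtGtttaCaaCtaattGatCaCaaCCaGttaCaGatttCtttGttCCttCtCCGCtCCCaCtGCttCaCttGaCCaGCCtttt

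The next 3 are 120 bases from the middle of the coding part of mRNAs that ranked high on beads. Prkg1 (chr19:30564489-31765033, minus strand) encodes cGMP-dependent protein kinase 1, Zfp871 (chr17:32765496-32788287, minus strand) a zinc finger protein and Bcl2l11 (chr2:128126038-128162547, plus strand) the pro-apoptotic protein Bim. The spans are those of the genes, and the windows cover transcript bases 1157 to 1276, 1009 to 1128 and 462 to 581.
Prkg1: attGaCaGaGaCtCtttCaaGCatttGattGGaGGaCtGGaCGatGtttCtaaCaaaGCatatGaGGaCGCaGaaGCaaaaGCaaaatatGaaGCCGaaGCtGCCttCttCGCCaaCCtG
Zfp871: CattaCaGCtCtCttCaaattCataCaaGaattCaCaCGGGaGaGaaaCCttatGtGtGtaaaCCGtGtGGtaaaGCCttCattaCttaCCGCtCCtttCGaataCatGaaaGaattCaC
Bcl2l11: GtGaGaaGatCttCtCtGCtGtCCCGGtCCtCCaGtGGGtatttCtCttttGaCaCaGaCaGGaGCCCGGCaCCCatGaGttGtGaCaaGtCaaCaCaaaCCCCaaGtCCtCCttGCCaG

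The last 3 are the same kind of window from mRNAs that ranked low on beads. Ptgds (chr2:25466709-25470046, minus strand) encodes prostaglandin D2 synthase, Ephx1 (chr1:180976210-181020904, minus strand) epoxide hydrolase 1 and Pcolce (chr5:137605103-137613784, minus strand) an enhancer of procollagen cleavage. The windows cover transcript bases 392 to 511, 770 to 889 and 802 to 921. G and C made up 44.2% of the printed bases of Prkg1, 39.2% of Zfp871 and 53.3% of Bcl2l11, and 60.0% of Ptgds, 54.2% of Ephx1 and 53.3% of Pcolce, so the windows of Bcl2l11 and Pcolce do not differ in this.
Ptgds: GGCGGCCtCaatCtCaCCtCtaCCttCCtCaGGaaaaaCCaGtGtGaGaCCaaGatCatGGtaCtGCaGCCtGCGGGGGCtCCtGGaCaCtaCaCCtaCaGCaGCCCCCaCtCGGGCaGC
Ephx1: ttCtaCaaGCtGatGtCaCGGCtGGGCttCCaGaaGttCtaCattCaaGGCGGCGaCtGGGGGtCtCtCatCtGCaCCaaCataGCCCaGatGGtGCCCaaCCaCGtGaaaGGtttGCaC
Pcolce: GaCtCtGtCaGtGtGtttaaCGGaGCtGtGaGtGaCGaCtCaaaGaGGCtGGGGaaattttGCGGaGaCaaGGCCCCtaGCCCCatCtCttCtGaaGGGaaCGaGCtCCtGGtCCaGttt

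The libraries held 3512997, 1712212 and 2801685 reads on repeat subfamilies in BO replicates 1 to 3, and 3045169, 3545267 and 3880641 in INPUT. In BO replicate 3, 54.3% of these reads were on rRNA repeats, against 3.28% and 3.45% in the other BO libraries and 4.25% to 14.0% in INPUT. Among the INPUT libraries, replicate 1 stood apart for several small nuclear RNAs and Y RNAs, whose values are given below. Both libraries were kept, and for many of the results that rest on them values without them are also given. Normalized counts describe the make-up of each library and not the amount of RNA on the beads. For genes the tables list only 1 mean per group, so their depth and spread are unknown. Mael itself was listed at a mean of 0.502 in BO and 0 in INPUT. Of the tissue's markers, all 9 spermatocyte genes tested were detected (means from 154 to 6257 in BO and from 348 to 12256 in INPUT), whereas 6 of the 8 spermatid genes (Prm1, Prm2, Tnp1, Tnp2, Acrv1 and Acr) had means of at most 0.921 in BO and 9.91 in INPUT. The other two were Spaca1, at 40.9 in BO and 83.2 in INPUT, and Tssk6, at 4.89 and 3.46.

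The largest difference in make-up was the near absence of small structural RNAs from the beads. Repeats of the small RNA class (7SL, 7SK, U and Y RNAs) took 22.3%, 23.1% and 25.2% of repeat reads in the INPUT libraries and between 0.324% and 0.920% in the BO libraries. The groups did not overlap, and the exact two-sided permutation test gave p = 0.1, the smallest that 3 against 3 libraries allow. 7SL alone made up 17.0% to 18.7% of repeat reads in INPUT and 0.00882% to 0.224% in BO, and 7SK 2.74% to 2.96% against 0.0462% to 0.137%. These shares need no scaling between libraries. Since BO replicate 3 was mostly rRNA, shares were also taken without rRNA repeats. Small RNAs then held 0.692% to 0.952% in BO and 25.9% to 26.3% in INPUT.

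With small RNAs nearly gone, the classes of transposable element (TE) made up most of the BO reads outside rRNA. Without rRNA repeats, LINE, SINE, LTR and DNA elements held 89.6% to 90.4% of reads in BO and 67.1% to 68.3% in INPUT (exact permutation p = 0.1, the smallest possible). Shares sum to the whole, so the loss of small RNAs from the total raises every other class without any change of its own. Shares were therefore also taken without rRNA and small RNA repeats, a total chosen after the values were seen. On it TEs held 90.4% to 91.1% in BO and 91.1% to 92.3% in INPUT, and the groups overlapped (exact permutation p = 0.2).

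Within the remaining reads the TE classes moved in different directions. SINE elements went from 36.9%-39.8% in INPUT to 30.1%-33.7% in BO, whereas on the total with small RNAs they had lain higher in BO (29.9%-33.5% against 27.2%-29.5%). LINE elements went from 16.5%-18.1% to 18.5%-20.2%. LTR elements went from 32.0%-32.6% in INPUT to 35.1%-36.6% in BO, but 1 subfamily, ERVB4_1B-I_MM-int, carried this rise. Without it the other LTR elements went the other way, from 27.2%-28.2% in INPUT to 23.9%-24.5% in BO (exact permutation p = 0.1). The total still held ERVB4_1B-I_MM-int, so its own rise lowers the share of the others and accounts for part of this fall. Shares with it left out of the total were not taken. Satellite repeats went from 0.961%-0.984% to 1.20%-1.52%. In each of the 4 classes SINE, LINE, LTR and satellite the groups did not overlap, with an exact permutation p of 0.1. DNA elements (3.44%-3.58% in INPUT and 3.55%-3.73% in BO, exact permutation p = 0.3) and simple repeats (3.59%-4.07% and 3.80%-4.71%, exact permutation p = 0.3) overlapped. With all repeats in the total, BO replicate 3 fell below INPUT and the TE shares overlapped too (41.3% to 87.3% in BO and 58.7% to 64.2% in INPUT, exact permutation p = 0.4). The share of tRNA repeats as a class overlapped on every total (0.0639% to 0.427% in BO and 0.0478% to 0.344% in INPUT without rRNA).

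**Figure D1:**
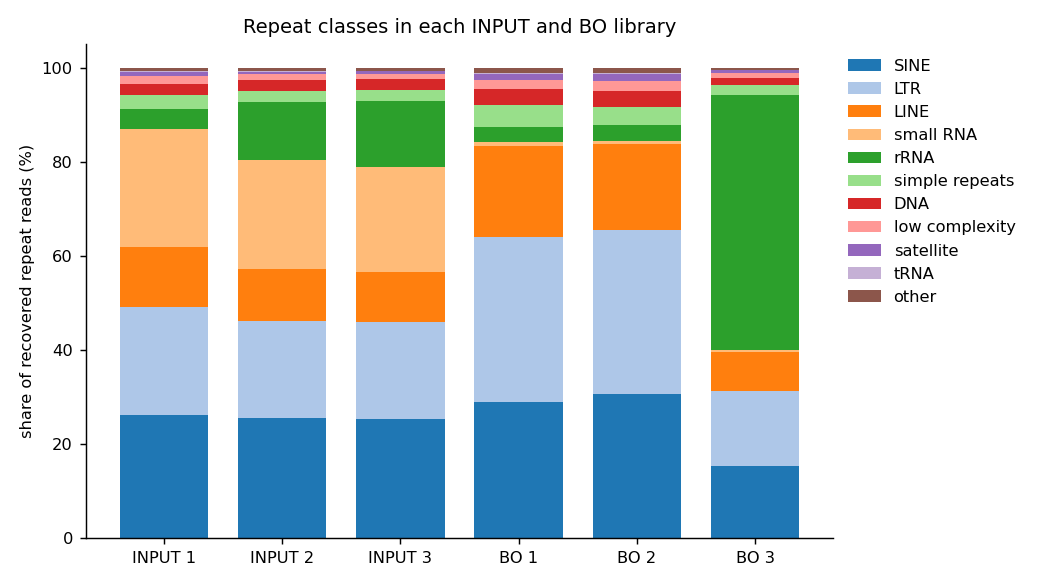
Share of recovered repeat reads (percent, vertical axis) by repeat class in each of the 3 INPUT and 3 BO libraries, 1 stacked bar per library. Small RNAs take 22.3% to 25.2% of each INPUT bar and at most 0.920% of each BO bar, and rRNA takes 54.3% of BO replicate 3.

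Single subfamilies were compared on normalized counts, in which the 75th percentile over subfamilies is the same in each library. A subfamily was called when it differed by more than 2-fold (1 on the log2 scale) and the adjusted p from limma's moderated test was under 0.05. On this scale 31 subfamilies were called higher in BO than in INPUT (2.63% of those tested) and 33 lower (2.80%). Among 938 TE subfamilies 19 were called higher (2.03%) and 19 lower (2.03%). In 498 of the 1180 subfamilies (42.2%) the 3 BO and 3 INPUT libraries did not overlap, and 341 had an adjusted p under 0.05 from limma, most of them changed by less than 2-fold. The median log2 fold change over all subfamilies was 0.03, so changes on this scale are relative to a typical subfamily. The filter used the mean over all 12 libraries, so some called subfamilies of low count passed only through the groups where they were high. Among them were (CATTC)n, with means of 30.9 in BO and 4.53 in INPUT, and U8, with 0.207 and 17.6. U13 and tRNA-Ser-TCG were such cases as well. For these the filter and the call are not independent.

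Of 16 small RNA subfamilies, 11 were called lower, none higher, and all 16 had a negative log2 fold change, with a median of -3.17 against 0.03 over all subfamilies. 7SL (7SLRNA in the repeat annotation) had normalized counts of 4905, 196 and 2672 in the BO libraries and of 485266, 541231 and 540793 in INPUT. The groups were far apart, with a log2 fold change of -8.57 (SE 0.85, adjusted p = 3.23e-05, limma), a 380-fold difference. The BO libraries themselves spread widely. Without BO replicate 2, the lowest, the log2 fold change was -7.17, and without BO replicate 1, the highest, it was -9.49. 7SK, in the particle that holds back RNA polymerase II, had 3000, 2088 and 2075 in BO and 84798, 82406 and 80364 in INPUT. Its log2 fold change was -5.13 (SE 0.19, adjusted p = 4.38e-09, limma), the smallest adjusted p among subfamilies. U1, which marks the start of introns, had 1088, 1043 and 226 in BO and 26989, 14686 and 7897 in INPUT, with a log2 fold change of -4.52 (SE 0.60, adjusted p = 0.000266, limma) and of -3.78 without BO replicate 3.

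For HY3, HY1, U3, U4 and U2, INPUT replicate 1 held far more than the other INPUT libraries. In the unfractionated extract (TOTAL), replicate 1 was likewise the highest for each of them. HY3 had 10624, 654 and 1236 in TOTAL replicates 1 to 3, and U4 had 11971, 2533 and 3159. The excess was therefore not particular to INPUT replicate 1. HY3 had 2604 in INPUT replicate 1 and 98.0 and 104 in replicates 2 and 3, against 16.8, 7.81 and 14.4 in BO. HY1 had 1004, 77.6 and 59.7 in INPUT and 8.73 and 12.8 in BO replicates 1 and 3 and less than either in replicate 2. Both stayed below every INPUT library on the beads, and the log2 fold change was -4.48 for HY3 (SE 1.18, adjusted p = 0.0131, limma) and -4.42 for HY1 (SE 1.07, adjusted p = 0.00829, limma). Without INPUT replicate 1 these values were -2.92 (adjusted p = 0.0275, limma) and -3.14 (adjusted p = 0.0212, limma). U3, a snoRNA that guides ribosomal RNA cleavage, had 22558, 5721 and 4014 in INPUT and 653, 444 and 412 in BO, a log2 fold change of -4.02 (SE 0.56, adjusted p = 0.000382, limma) and of -3.28 without INPUT replicate 1. U4 had 11837, 1653 and 1487 in INPUT and 234, 251 and 197 in BO, a log2 fold change of -3.76 (SE 0.76, adjusted p = 0.00318, limma) and of -2.79 without INPUT replicate 1. U2, which pairs with the branch point, had 70018, 16735 and 14122 in INPUT and 6289, 6675 and 4921 in BO. Its log2 fold change of -2.11 (adjusted p = 0.0201, limma) was no longer called without BO replicate 1 (-2.15, adjusted p = 0.0532, limma), BO replicate 3 (-1.98, adjusted p = 0.0568, limma) or INPUT replicate 1 (-1.38, adjusted p = 0.0583, limma).

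The snoRNAs U17, U13 and U8 completed the called small RNAs. U17 had 151, 163 and 103 in INPUT and 27.4, 19.5 and 22.4 in BO, separate groups with a log2 fold change of -2.52 (SE 0.43, adjusted p = 0.00114, limma). U13 had 12.2, 12.2 and 8.31 in INPUT and less than 3 in each BO library (-2.09, adjusted p = 0.0201, limma), and was not called without BO replicate 1 (adjusted p = 0.0624, limma), INPUT replicate 1 (adjusted p = 0.0535, limma) or INPUT replicate 2 (adjusted p = 0.0714, limma). U13 also lost its call with a pseudocount of 10 (-0.82) and when libraries were scaled to their totals (adjusted p = 0.0956, limma). U8 had 35.7, 8.16 and 9.07 in INPUT and was at 0 in BO replicates 2 and 3 and at 0.620 in replicate 1. Its log2 fold change was -3.68 (adjusted p = 0.0018, limma) and -3.03 without INPUT replicate 1 (adjusted p = 0.00803, limma).

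Of 15 tRNA subfamilies 2 were called lower (13.3%, against 2.80% of all subfamilies) and none higher, with a median of -0.35. tRNA-Ser-TCG had 34.8, 20.4 and 15.1 in INPUT and 1.87, 0 and 1.60 in BO (-3.56, SE 0.55, adjusted p = 0.000647, limma). tRNA-Ser-TCY had 23.5, 14.7 and 13.6 in INPUT and 2.49, 3.90 and 3.21 in BO (-2.09, SE 0.33, adjusted p = 0.000746, limma). Both lay at low counts, with separate groups.

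Not every repeat named for a short RNA was scarce. U6, at 432, 454 and 494 in BO and 688, 439 and 418 in INPUT, had a log2 fold change of -0.13 (adjusted p = 0.745, limma). 5S rRNA, which the class of rRNA repeats includes, had 253, 246 and 295 in BO and 247, 255 and 211 in INPUT, with overlapping groups and a log2 fold change of 0.16 (adjusted p = 0.312, limma). The U6 and 5S RNAs are both made by RNA polymerase III, as are 7SL, 7SK and the Y RNAs. Repeat counts do not separate a short RNA from copies of it embedded in host transcripts. Whether the U6 and 5S reads came from the short RNAs themselves was not tested. BC1_Mm, repeats related to the neuronal BC1 RNA, had 2983, 3198 and 3064 in BO and 7937, 3596 and 4132 in INPUT, and was not called (-0.67, adjusted p = 0.213, limma). LSU-rRNA_Hsa, the large ribosomal subunit repeat, had 69645, 72408 and 2342152 in BO and 120103, 354106 and 402007 in INPUT. Its log2 fold change was -0.18 (adjusted p = 0.941, limma) with all libraries and -1.86 without BO replicate 3.

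Among TEs, L1 elements were a little over-represented on beads as a family. Of 130 L1 subfamilies 113 had a positive log2 fold change, with a median of 0.35 against 0.03 over all subfamilies, 4 were called higher (3.08%, near the 2.63% of all subfamilies) and none lower. The 4 were the old, inactive subfamilies L1MA8, L1MA4, L1ME4a and L1M2a. L1MA4 had 5806, 5294 and 4312 in BO and 2737, 2426 and 2295 in INPUT, with a log2 fold change of 1.04 (SE 0.11, adjusted p = 4.50e-05, limma). L1MA8 had 2275, 2551 and 2227 against 1221, 1141 and 1042, with a log2 fold change of 1.05 (adjusted p = 1.83e-05, limma), L1ME4a one of 1.03 and L1M2a one of 1.02. These changes sat at the 2-fold limit. In edgeR's quasi-likelihood test on recovered reads all 4 stayed under it (0.95 to 0.97). L1MA4 dropped to 0.95 without BO replicate 1 and 0.98 without INPUT replicate 3, L1MA8 to 0.99 without BO replicate 2 or INPUT replicate 3, L1ME4a to 0.96 without BO replicate 2 or INPUT replicate 2 and 0.98 without INPUT replicate 3, and L1M2a to 0.99 without BO replicate 3 and 0.92 without INPUT replicate 3. Their adjusted p in these fits with a replicate left out was at most 0.00267 (limma). When libraries were scaled to their totals, all 4 missed the threshold on adjusted p (0.0504 to 0.0623, limma). The Lx subfamilies, an older rodent L1 lineage, had positive values in 21 of 21 cases (median 0.37), 18 of them with an adjusted p under 0.05 from limma and none past 2-fold. Over all 1180 subfamilies 634 were positive and 341 had an adjusted p under 0.05 from limma.

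The L1Md subfamilies comprise the younger A, T and Gf types, some of whose copies still encode ORF1p, and the older F types. Their median log2 fold change was 0.07 over 6 subfamilies, with none called. L1Md_A had 15633, 14530 and 14131 in BO and 27258, 18980 and 17934 in INPUT. Every BO library lay below every INPUT library, with a log2 fold change of -0.51 (SE 0.20, adjusted p = 0.0824, limma) that was not called. L1Md_T had 20911, 19423 and 20260 in BO and 30493, 19784 and 19585 in INPUT, and the groups overlapped (log2 fold change -0.17, SE 0.22, adjusted p = 0.615, limma). With 1 replicate left out at a time, its log2 fold change ran from -0.28 to 0.04. L1Md_F2 had 23707, 21456 and 19984 in BO and 23093, 19353 and 18235 in INPUT (0.11, SE 0.12, adjusted p = 0.551, limma). In the IP these subfamilies had log2 fold changes of 1.81, 1.87 and 0.67 against the same INPUT libraries and of 2.32, 2.05 and 0.56 against the same BO libraries. The comparisons share libraries, so the values are set side by side only.

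SINE subfamilies lay close to the typical subfamily or below it, with a median log2 fold change of -0.10 over 35 subfamilies, of which 9 were positive. B1_Mm, which derives from 7SL RNA, had 10816, 12038 and 12234 in BO and 14491, 14556 and 14035 in INPUT. The groups did not overlap, and B1_Mm fell by 0.30 on the log2 scale (SE 0.07, adjusted p = 0.0057, limma), far less than 7SL itself. B2_Mm1a, a young tRNA-derived SINE, had 8156, 9157 and 8919 in BO and 20587, 14042 and 14195 in INPUT and fell by 0.87 (SE 0.23, adjusted p = 0.0118, limma), under the 2-fold limit. Among the most counted SINEs, B3, ID_B1, RSINE1 and B3A had log2 fold changes of -0.08, -0.11, -0.07 and 0.03 (adjusted p between 0.302 and 0.859, limma). B2_Mm2, also among the most counted, fell by 0.41 (adjusted p = 0.0253, limma). FAM, an old relative of Alu and B1 elements, was the 1 SINE called, at 71.1, 78.1 and 91.4 in BO and 31.0, 41.6 and 36.3 in INPUT (log2 fold change 1.12, adjusted p = 0.00118, limma). FAM lost its call with a pseudocount of 10 (0.96), when libraries were scaled to their totals (1.18, adjusted p = 0.0659, limma) and without both BO replicate 3 and INPUT replicate 1 (0.92), a fit added after the values were seen.

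Of 581 LTR subfamilies 13 were called higher (2.24%) and 17 lower (2.93%), near the 2.63% and 2.80% of all subfamilies, and 254 had a positive log2 fold change (median -0.05). The largest in reads was ERVB4_1B-I_MM-int, the internal part of an endogenous betaretrovirus. Its normalized counts were 265442, 256438 and 216483 in BO and 110550, 76618 and 77818 in INPUT, and 61955, 45368 and 41002 in IP. BO lay above both other groups, with a log2 fold change of 1.49 against INPUT (SE 0.20, adjusted p = 0.000285, limma), a 2.82-fold difference. This 1 subfamily took 10.5% to 12.5% of all BO repeat reads outside rRNA and 3.02% to 4.04% of those of INPUT, or 10.6% to 12.7% and 4.10% to 5.48% with small RNAs left out as well. Its flanking repeat, ERVB4_1B-LTR_MM, had 15533, 14981 and 12938 in BO and 6575, 5288 and 5749 in INPUT (log2 fold change 1.30, adjusted p = 3.90e-05, limma). Of the 6 ERVB4 subfamilies, these 2 were called higher (33.3%, against 2.63% of all subfamilies) and the median was -0.29. In the authors' table of single loci, 380 loci of ERVB4_1B-I_MM-int had summed means of 50602 in BO and 19210 in INPUT, and the locus with the highest BO mean held 10.8% of the BO sum (5458 against 1368 in INPUT). That locus was chosen after its values were seen. Locus means and subfamily counts are on separate scales. The locus means of BO and INPUT were also scaled separately, and are given without setting them relative to the median gene.

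RLTR13D3A, an LTR of the ERVK group, showed the highest fold among TEs. It had 696, 532 and 635 in BO, 110, 136 and 104 in INPUT and 144, 137 and 90.7 in IP, a log2 fold change of 2.40 against INPUT (SE 0.18, adjusted p = 3.53e-06, limma). RMER16A3, also of the ERVK group, had 7442, 8623 and 7216 in BO and 3063, 2869 and 2562 in INPUT (1.45, SE 0.12, adjusted p = 8.44e-06, limma). MLT1D-int, from an old MaLR element, had 504, 639 and 502 against 194, 180 and 215 (1.47, adjusted p = 8.95e-06, limma). MER92-int had 373, 364 and 342 against 172, 112 and 121 (1.43, adjusted p = 0.000122, limma), and MurERV4_19-int 1650, 2035 and 1605 against 847, 784 and 699 (1.18, adjusted p = 0.000266, limma). In each of these subfamilies the groups did not overlap. For RLTR13D3A the single loci did not show a rise of this size. Its 34 loci had summed means of 16.0 in BO and 29.9 in INPUT, and the locus with the highest BO mean had 3.12 in BO and 9.37 in INPUT. ERVB2_1-I_MM-int was called higher as a subfamily (107, 63.8 and 94.6 in BO and 14.1, 30.2 and 20.4 in INPUT, 2.02, adjusted p = 0.00102, limma). Over its 17 loci it summed to 10.7 in BO and 16.0 in INPUT. MER124, a repeat of unsure class, had 777, 666 and 717 in BO and 288, 297 and 277 in INPUT as a subfamily (1.32, adjusted p = 2.08e-06, limma) and summed loci of 18.4 in BO and 66.5 in INPUT. These sums were taken as listed, with BO and INPUT scaled separately. On that scale Actb, which lay at the median gene once the scales were joined, had 7795 in BO and 14911 in INPUT. A lower BO sum therefore does not by itself show a lower share on beads. Only for MER124 was the BO sum lower by clearly more than this. Why locus sums and subfamily counts differed was not tested.

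On the lower side, 8 of 104 ERV1 subfamilies (7.69%) and 5 of 267 ERVK subfamilies (1.87%) were called, where 2.80% of all subfamilies were. The ERV1 count depended on the settings. When libraries were scaled to their totals 5 of the 8 lost their call (MER50B, RLTR41C, RLTR48B, LTRIS4 and MER110-int), 4 did with a pseudocount of 10, and MER110-int also did in 5 of the 6 fits with a replicate left out. MMTV-int, the internal part of the mouse mammary tumour virus family, had 74.8, 58.5 and 40.1 in BO and 134, 185 and 192 in INPUT (-1.57, SE 0.24, adjusted p = 0.000609, limma). RLTR9B had 83.5, 118 and 104 against 222, 236 and 277 (-1.26, adjusted p = 0.000637, limma). RLTR4_Mm, the LTR of a gammaretrovirus-like family, had 701, 721 and 669 against 1625, 1462 and 1722 (-1.20, adjusted p = 0.000208, limma), and MuRRS4-int 489, 595 and 584 against 1147, 1198 and 1267 (-1.12, adjusted p = 8.09e-06, limma). MamGyp-int, of an ancient Gypsy family, had 103, 114 and 103 against 233, 252 and 269 (-1.23, adjusted p = 0.000266, limma). All of these groups were separate. The IAP subfamilies, young and active ERVK elements, leaned the same way, with 23 of 25 negative and a median of -0.52, of which IAPLTR4 was called (-1.09, adjusted p = 1.41e-05, limma), though not when libraries were scaled to their totals (-1.04, adjusted p = 0.0559, limma). IAPEz-int had 6810, 6433 and 6021 in BO and 11707, 10268 and 10380 in INPUT and fell by 0.75 (SE 0.11, adjusted p = 0.000412, limma). MMERVK10C-int had 20953, 15258 and 14639 in BO and 28159, 23331 and 24366 in INPUT and fell by 0.59 (SE 0.20, adjusted p = 0.0457, limma).

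**Figure D2:**
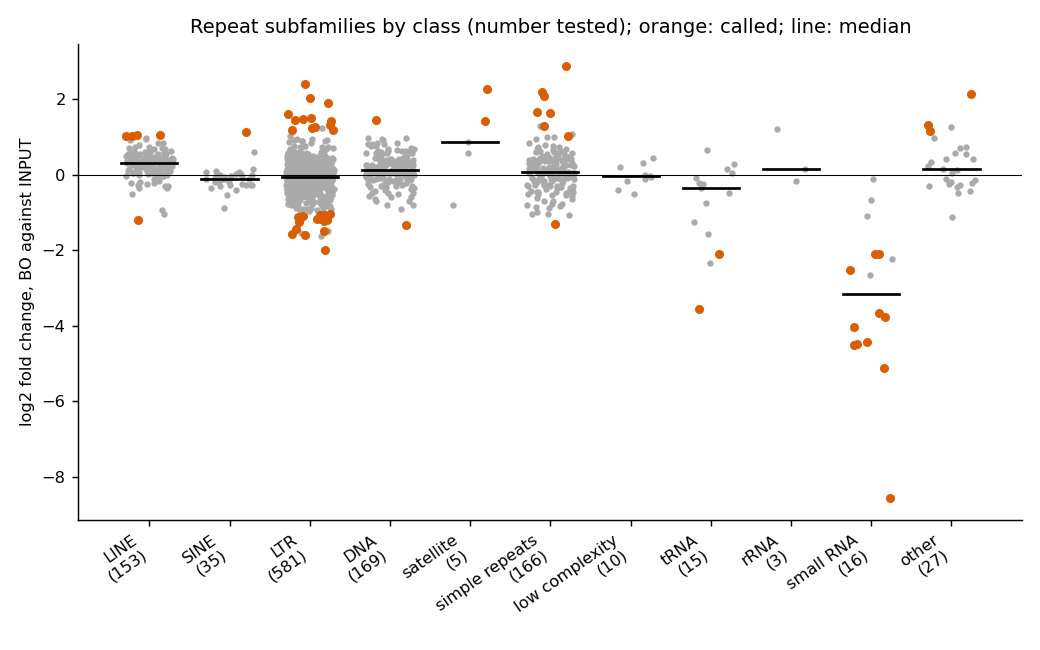
Log2 fold change of each tested repeat subfamily in BO against INPUT (vertical axis), by class, with the number tested under each name, called subfamilies in orange and the class median as a line. Small RNAs lie lowest with a median of -3.17, LINE elements have a median of 0.32, and LTR elements have calls in both directions.

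Satellites and simple repeats held further high values. All 5 satellite subfamilies had an adjusted p under 0.05 from limma, as had 341 of all 1180 subfamilies. Of the 5, 4 had a positive value, against 634 of the 1180, and 2 were called higher (40%, against 2.63%). GSAT_MM, the major satellite of mouse pericentromeres, had 2445, 1415 and 693 in BO and 657, 416 and 445 in INPUT. BO replicate 3 lay only just above the highest INPUT library, and the log2 fold change was 1.43 (SE 0.46, adjusted p = 0.0338, limma). The call was lost without BO replicate 1 (0.997, adjusted p = 0.144, limma), BO replicate 2 (1.39, adjusted p = 0.0884, limma), INPUT replicate 2 (1.31, adjusted p = 0.103, limma) or INPUT replicate 3 (1.35, adjusted p = 0.0966, limma). SYNREP_MM had 496, 327 and 164 in BO and 68.6, 62.9 and 52.9 in INPUT (2.27, SE 0.44, adjusted p = 0.00248, limma), with its 3 BO libraries in the same order as those of GSAT_MM. IMPB_01 had 3487, 2533 and 2845 against 1595, 1537 and 1673 and stayed under 2-fold (0.87, adjusted p = 0.000266, limma). ZP3AR was the satellite that fell, by 0.81 (adjusted p = 0.00652, limma).

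Of 166 simple repeats, 7 were called higher (4.22%) and 1 lower (0.602%), against 2.63% and 2.80% of all subfamilies. Of the 7, 3 were unstable. (TTTAG)n lost its call without each of the 6 libraries in turn (adjusted p from 0.0568 to 0.144, limma), (CATTC)n in 4 of these 6 fits (adjusted p from 0.062 to 0.0807, limma), and (TA)n without BO replicate 2 (0.95) or INPUT replicate 1 (0.81), with edgeR (0.91) and with DESeq2 (0.94). The repeat of the unit CTCA, written (CTCA)n, had 360, 382 and 343 in BO and 72.3, 75.1 and 90.7 in INPUT (2.18, SE 0.16, adjusted p = 3.53e-06, limma). Its reverse complement (TGAG)n had 490, 489 and 443 against 139, 144 and 162 (1.67, SE 0.12, adjusted p = 2.36e-06, limma), so the unit and its complement both rose. (GAA)n had 1224, 958 and 750 against 452, 245 and 264 (1.63, SE 0.35, adjusted p = 0.00468, limma), whereas its complement (TTC)n was not called (-0.50, adjusted p = 0.388, limma). Likewise (CCAA)n rose (1.29, adjusted p = 5.87e-05, limma) and (TTGG)n was not called (-0.29, adjusted p = 0.319, limma). By the make-up of the unit, the median was 0.14 over 14 repeats with no G or C, 0.22 over 55 with a minority of them, 0.20 over 29 with equal parts and -0.02 over 68 with a majority. The 7 repeats called higher were 1, 3, 3 and 0 of these groups, and (TTGGGG)n, of the last, was called lower (-1.32), though not with a pseudocount of 10 (-0.99) or when libraries were scaled to their totals (-1.27, adjusted p = 0.172, limma). UCON4, a conserved element of unknown class, had 914, 909 and 908 in BO and 218, 202 and 203 in INPUT (2.13, SE 0.13, adjusted p = 8.92e-07, limma). In the table of single loci, nearly all of it was at 1 locus, with a mean of 1033 in BO and 172 in INPUT, or 94.2% of the BO sum over its 14 loci. The locus was singled out after its values were seen.

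**Figure D3:**
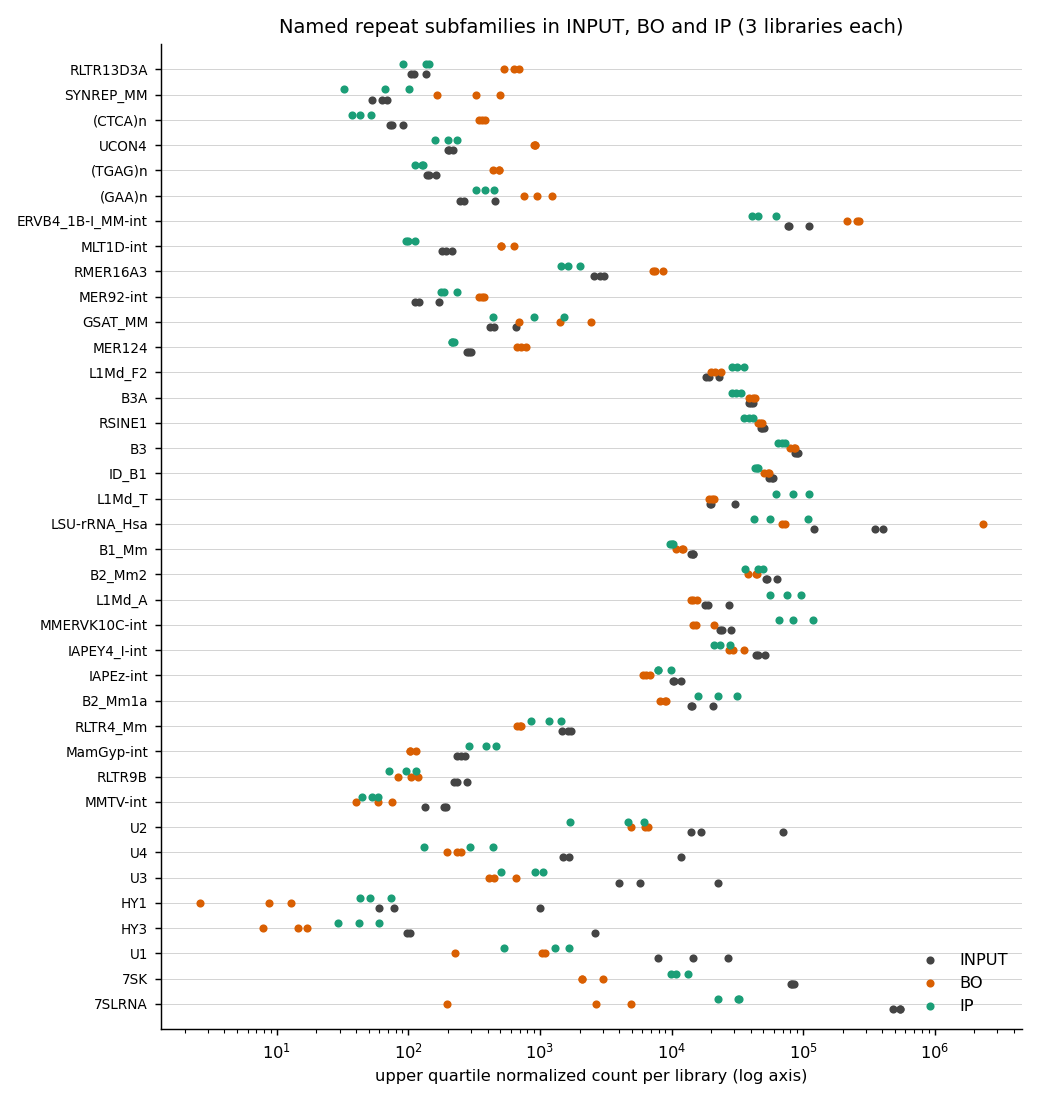
Upper quartile normalized count in each library (horizontal log axis) of the 38 named repeat subfamilies, ordered by log2 fold change, for INPUT, BO and IP with 3 libraries each. RLTR13D3A at the top has BO values of 532 to 696 against 104 to 136 in INPUT, and 7SLRNA at the bottom has BO values of 196 to 4905 against 485266 to 541231.

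For genes, BO and INPUT were joined through the IP libraries, which both deposited comparisons contain. The difference is log2(IP/INPUT) minus log2(IP/BO) from the authors' means, and is positive where BO is higher. The 2 tables were scaled separately, and their IP means differed by a log2 ratio of 0.39 with an SD of 0.0013 over genes. The median difference was -0.53, and values below are relative to it. With no value per library there is no error, test or p-value for a gene, and "higher" and "lower" describe the authors' means. By this measure 2470 genes were over 2-fold higher in BO (19.3%) and 2251 over 2-fold lower (17.6%). Without centring on the median the counts were 1210 and 4175. Past 4-fold there were 561 and 378 genes, past 8-fold 66 and 26, and past 16-fold 7 and 2. Just past the 2-fold limit stood Zdhhc24 (1.0004) and Dscr3 (-1.0002), and just short of it Utrn and Cops4. Actb, encoding beta-actin, was at -0.02.

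Of the genes that did not qualify, 1305 had an INPUT mean above 10 and a BO mean at or under 10, and 124 the reverse. The cut was put on uncentred means, on which Actb had 7795 in BO and 14911 in INPUT, so such counts lean towards INPUT. With INPUT above 100 and BO at or under 10 there were 10 genes, and none the reverse. The first of these was Vaultrc5, a short RNA of the vault particle, with a mean of 3102 in INPUT and 3.53 in BO, followed by the box C/D snoRNA Snord89 with 139 and 6.79. Both are short structural RNAs, as were the lowest 2 genes of the main set. The 8 genes annotated as miRNA that qualified had a median of 1.73. Their median annotated length was 80 nt, and whether the reads counted there came from RNAs of that length was not tested. Of these 8 genes 5 were over 2-fold higher (62.5%, against 19.3% of all genes) and 2 over 2-fold lower (against 17.6%). They are few and untested, at means of 11.2 to 166 in BO and 14.8 to 103 in INPUT. Rmrp had 33457 in INPUT and 306 in BO, a centred log2 difference of -5.85 (57.7-fold), and Rpph1, the RNA of RNase P, had 30116 and 359 (-5.47). Rnu12, an RNA of the minor spliceosome, was at -3.14 and Rn45s, the ribosomal precursor, at -3.07, with an INPUT mean of 7879 and a BO mean of 494. The 6 snoRNA and small Cajal body RNA genes that qualified, of 105 listed, had a median of -1.41, from Scarna13 (-2.27) to Scarna2 (-0.35).

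At the other end, Prkg1 had a mean of 19079 in BO and 1096 in INPUT and 5.04 as its centred log2 difference (32.9-fold), the highest of all genes. Its IP means were 330 in the table with BO and 433 in the table with INPUT. Zfp871 had 26816 in BO and 2511 in INPUT (4.34), the unnamed lincRNA 2900097C17Rik 22002 and 2050 (4.35), and Bcl2l11 6122 and 707 (4.04). Lnpep, an aminopeptidase of insulin-responsive vesicles, had 57087 and 7048 (3.94), and Lrrc58, a leucine-rich repeat protein, had 97561 and 16575 (3.48). Hook3, an adaptor of dynein, was at 3.79, Tcf4, a basic helix-loop-helix factor, at 3.59, and Gsk3b, the kinase GSK3 beta, at 3.58. The other genes among the 15 highest were Fam160b2, Rnf152, Prrg1, Tmem47, Slc6a14 and Klhl28, with centred differences from 3.47 to 3.73.

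Among the lowest mRNAs, Ptgds had a mean of 511 in BO and 11290 in INPUT (-3.55), Ephx1 569 and 10040 (-3.22) and Cyp17a1, the steroid 17-hydroxylase of Leydig cells, 1326 and 19063 (-2.93). Agt, encoding angiotensinogen, had 1043 and 14383 (-2.87), Lcn2, lipocalin 2, 1069 and 14577 (-2.85) and Gsn, gelsolin, 391 and 5816 (-2.97). Pcolce was at -2.98, the carboxylesterase Ces1d at -2.93, the complement genes C4b and C2 at -2.92 and -2.85, Retsat, retinol saturase, at -2.85 and Cox4i1, a subunit of cytochrome oxidase, at -2.85. In the IP against INPUT, 10 of these 12 mRNAs had log2 ratios, relative to the median gene, from -3.32 to -1.67 and the other two -1.53 (C4b) and -1.40 (Cox4i1).

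Several lists of short housekeeping mRNAs were low, where 17.6% of all genes were over 2-fold lower and 19.3% over 2-fold higher. Of 76 cytosolic ribosomal protein genes, 69 (90.8%) were over 2-fold lower in BO and none over 2-fold higher, with a median of -1.72 against 0.00 over all genes. Rplp0 had a mean of 354 in BO and 2967 in INPUT (-2.15), Rps3 248 and 2198 (-2.23) and Rpl4 620 and 3398 (-1.53), and the range ran from Rpl39 (-2.61) to Rpl15 (0.09). Of 47 histone genes, 39 (83.0%) were over 2-fold lower (median -2.13), and the lowest was Hist1h4h (-3.52). The linker histone Hist1h1a, the histone gene with the highest INPUT mean, had 936 in BO and 7933 in INPUT (-2.16). H3f3b, whose mRNA is polyadenylated and spliced, was the 1 histone gene over 2-fold higher (1.14). Of 82 nuclear-encoded respiratory chain genes 59 (72.0%) were lower and none higher (median -1.59), from Cox6a1 (-3.36) to Ndufaf4 (0.45). Of 37 proteasome genes 20 (54.1%) were lower and none higher (median -1.09), and of 70 mitochondrial ribosomal protein genes 32 (45.7%) were lower and none higher (median -0.93).

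The IP values of these lists are given beside them, from libraries that the BO and INPUT comparisons share. Against INPUT, the median log2 ratio of IP relative to the median gene was 0.29 for cytosolic ribosomal proteins, -0.47 for the respiratory chain and 0.42 for the proteasome. Against BO the same medians were 1.75, 1.20 and 1.34. For histones they were -0.76 and 1.43, and for mitochondrial ribosomal proteins 0.14 and 1.02.

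Of 59 translation factor genes, 16 (27.1%) were over 2-fold lower and 8 (13.6%) over 2-fold higher (median -0.50), shares nearer those of all genes. The lower ones included the elongation factors Eef1a1 (-1.70), Eef1b2 (-2.02) and Eef2 (-1.01) and the initiation factor 3 subunits Eif3k (-2.59), Eif3h (-1.90) and Eif3i (-1.79). The higher ones included the stress kinases Eif2ak2 (1.58) and Eif2ak3 (1.16), the scaffold Eif4g3 (1.03) and Eif5a2 (1.42). Eif4g2 was the most abundant, with a mean of 9733 in BO and 22399 in INPUT, and was near the median gene (-0.28).

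Zinc finger genes formed the largest list on the high side. Of 301 Zfp genes 138 (45.8%) were over 2-fold higher in BO and 6 over 2-fold lower, with a median of 0.95, where 19.3% and 17.6% of all genes were. After Zfp871 came Zfp839 (3.29), Zfp26 (3.16) and Zfp763 (3.03). The abundant Zfp518a had a mean of 25305 in BO and 9925 in INPUT (2.27), Zfp704 17910 and 8529 (1.99) and Zfp106 12873 and 11133 (1.13). The lower ones were Zfp692 (-2.36), Zfp771, Zfp593, Zfp358, Zfp637 and Zfp395. Of 7 nuclear long noncoding RNAs 4 were over 2-fold higher and none over 2-fold lower (median 1.02). Malat1, a nuclear speckle RNA, had 75616 in BO and 61842 in INPUT (1.21), whereas Neat1, the scaffold of paraspeckles, was at -0.61 with 218 and 631. The noncoding host transcripts of snoRNAs had a median of -0.69 over 10 genes, from Snhg18 (-2.04) to Snhg3 (0.93).

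Motor and cytoskeletal genes lay nearer the median gene. Of 59 kinesin and dynein genes 10 (16.9%) were over 2-fold higher and 4 (6.78%) over 2-fold lower (median 0.05), against 19.3% and 17.6% of all genes. All 10 higher genes were kinesins, led by Kif21a with a mean of 20353 in BO and 6209 in INPUT (2.63). Of the 4 lower genes 3 encode axonemal dynein heavy chains, Dnah17 (-2.01), Dnah10 and Dnah2, and the fourth was Kifc2 (-1.70). Dync1h1, the cytoplasmic dynein heavy chain, was at -0.12 despite a transcript of 14342 nt. Of 55 centrosome and cilium genes 8 (14.5%) were higher and 4 (7.27%) lower, both below the shares over all genes (median 0.17), from Cep97 (3.16) to Ift43 (-1.11). Among 18 genes for giant cytoskeletal proteins, with a median transcript of 16135 nt, 2 were higher, Dmd (1.39) and Macf1 (1.11), and 1 lower, Ryr1 (-1.06), which encodes a calcium release channel and not a cytoskeletal protein, and the median was 0.46. Collagen and laminin transcripts, with a median of 6454 nt, were low all the same, with 23 of 46 (50.0%) over 2-fold lower and 5 (10.9%) higher (median -1.04). Lamb2 had 703 in BO and 7662 in INPUT (-2.53). The 5 higher were Col8a1, Col19a1, Col25a1, Col4a3 and Col4a3bp, of which Col4a3bp encodes a ceramide carrier and not a collagen.

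**Figure D4:**
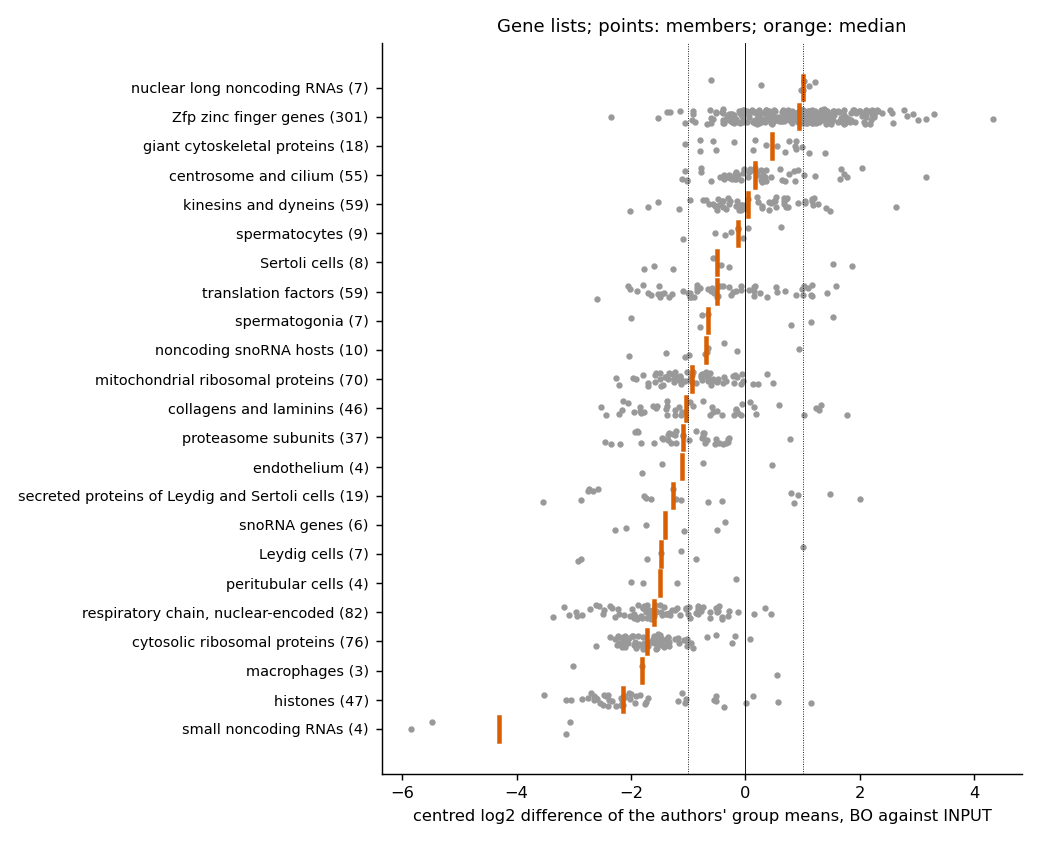
Centred log2 difference of the authors' group means in BO against INPUT (horizontal axis) for the members of each gene list, 1 grey point per gene, with the number of genes in brackets and the list median in orange. Dotted lines mark 2-fold. Small noncoding RNAs, histones, ribosomal proteins and respiratory chain genes lie left of the median gene, and Zfp genes and nuclear long noncoding RNAs to the right.

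The cell type markers were examined as well, since in tissue extracts fewer cells of a type and less RNA per cell cannot be told apart. BO and INPUT share the same cells, and so the markers describe which transcripts stayed on beads. Spermatocyte genes lay near the median gene (median -0.14 over 9 genes). Sycp1, of the synaptonemal complex, had a mean of 4494 in BO and 12256 in INPUT (-0.53), Sycp2 6257 and 11523 (0.04) and Mlh3, of meiotic mismatch repair, 827 and 1010 (0.63), and Tex101, a surface protein, was the 1 over 2-fold lower (-1.09). Markers of each somatic type spread widely, and their counts stand against 17.6% of all genes over 2-fold lower and 19.3% over 2-fold higher. In Leydig cells 5 of 7 were over 2-fold lower (Cyp17a1, Insl3, Cyp11a1, Star and Hsd3b1), whereas the luteinizing hormone receptor Lhcgr, with a transcript of 6828 nt, was higher (1.02). In Sertoli cells Amh (-1.78), Rhox5 (-1.60) and Clu (-1.27) were lower and the transcription factors Wt1 (1.87) and Sox9 (1.53) higher. In spermatogonia Uchl1 (-2.0002) was lower and Kit (1.53) and Sall4 (1.14) higher. Csf1r (-1.81) and Lyz2 (-3.02) of macrophages were lower and Mrc1 was at 0.56, and of 4 endothelial markers Vwf and Cdh5 were lower and Kdr was at 0.47. Smooth muscle Tagln (-2.002), Cnn1 (-1.78) and Acta2 (-1.19) of peritubular cells were lower and Myh11, with 6549 nt, was at -0.16. Alas2, the 1 erythroid gene that qualified, was at -0.93. Of 19 genes for secreted proteins of Leydig and Sertoli cells, a list that also holds the glycolytic gene Tpi1, 12 were lower (63.2%, against 17.6% of all genes) and 2 higher (10.5%, against 19.3%), Igfbp5 (1.999) and Igfbp3 (1.48). The lists were chosen with earlier results of these data known, and none was tested.

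Transcript length and base composition varied with the difference across coding genes. Over 12435 genes, Spearman's correlation with the centred difference was 0.49 for transcript length and -0.50 for GC content, given as descriptions since genes are not independent replicates. It was 0.46 for 3′ UTR length (12383 genes), -0.46 for 3′ UTR GC content (12337 genes), 0.27 for coding length, 0.20 for 5′ UTR length, 0.15 for the INPUT mean and 0.04 for the number of exons. In 5 equal groups by transcript length, the median centred difference went from -0.83 in the shortest group (up to 1942 nt) through -0.31, -0.01 and 0.27 to 0.81 in the longest (5379 nt or more). In the shortest group 43.2% of genes were over 2-fold lower and 4.38% over 2-fold higher, and in the longest group 3.54% and 41.9%. In 5 equal groups by GC content the median went from 0.86 in the lowest (up to 44.2%) to -0.67 in the highest (55.8% or more). Genes over 2-fold higher had a median transcript of 4980 nt with 44.9% GC and a 3′ UTR of 2385 nt, and genes over 2-fold lower a median of 1983 nt with 54.7% GC and a 3′ UTR of 481 nt.

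The 2 features were also combined, by the length and GC content of the 3′ UTR. Genes in the longest group of 3′ UTRs and the lowest GC group had a median of 1.56, and 75.9% of these 407 genes were over 2-fold higher. Genes in the shortest and most GC-rich group had a median of -1.12, and 57.4% of 612 were over 2-fold lower. Within 5 equal groups of the INPUT mean, Spearman's correlation with transcript length was between 0.39 and 0.52 and that with GC content between -0.59 and -0.40. For the IP, the median log2 ratio to INPUT in the 5 length groups stayed between -0.11 and 0.08, whereas the ratio to BO went from 0.68 in the shortest to -0.82 in the longest group. In the 5 groups by GC content the ratio of IP to INPUT did vary, from 0.52 in the lowest to -0.36 in the highest, in the same direction as BO against INPUT, and the ratio to BO went from -0.51 to 0.25. The IP ratios are relative to the median gene and share the IP libraries. Whether library size, fragment length or RNA quality had a part in the relation with length or GC content was not tested, since no value per library was used for genes. The starting amount of RNA, which differed by design between BO and INPUT, cannot be told apart from the group either.

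**Figure D5:**
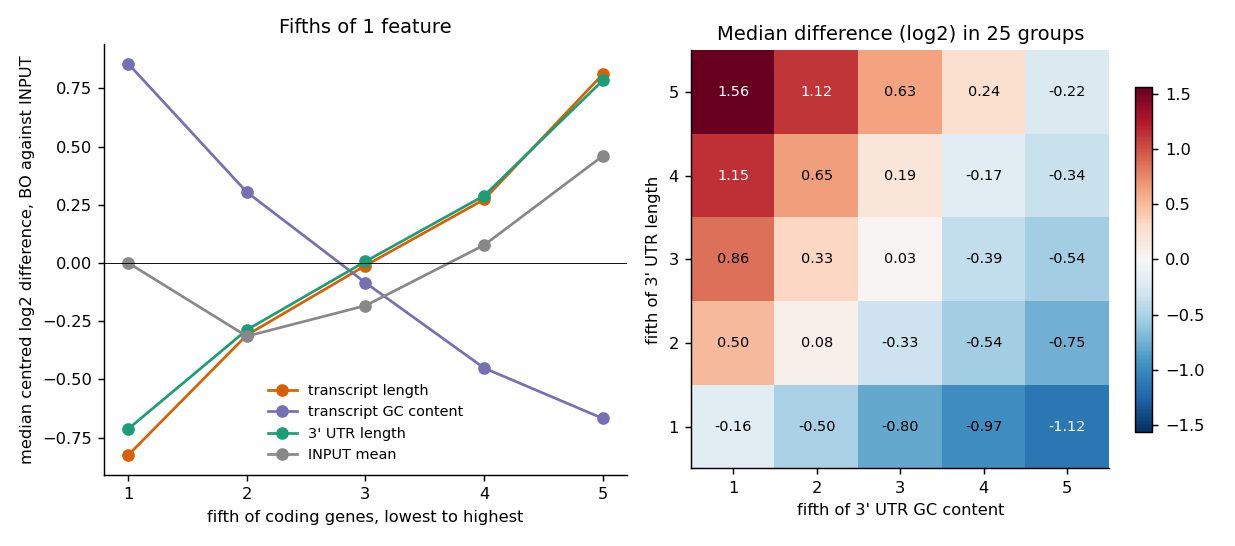
Left, median centred log2 difference of BO against INPUT (vertical axis) in 5 equal groups of coding genes ordered by transcript length, GC content, 3′ UTR length or INPUT mean. Right, the same median in 25 groups by 3′ UTR GC content (horizontal) and 3′ UTR length (vertical), from -1.12 for short GC-rich 3′ UTRs to 1.56 for long AU-rich ones.

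Short sequences in the 3′ UTR were counted for 12383 genes, on the transcript strand only. The 6 searched were ATTTA and TATTTAT, the letters of AU-rich elements, TGTANATA, the letters that Pumilio proteins are known to bind, its reversed letters ATANATGT for comparison, TTTTTTTT and GGGGG. Of these TATTTAT contains ATTTA. The 6 were chosen with earlier results of these data known. At least 1 TGTANATA was in 63.1% of the 3′ UTRs of genes over 2-fold higher in BO, in 23.5% of those within 2-fold and in 4.56% of those over 2-fold lower, against 27.8% of all. Longer 3′ UTRs hold more of any short sequence, and the density was therefore compared too. TGTANATA occurred 0.399, 0.185 and 0.0608 times per kb in the 3 groups, and the reversed letters 0.213, 0.149 and 0.0969 times. ATTTA occurred 2.38, 1.66 and 0.991 times per kb, and GGGGG 0.782, 1.09 and 1.58 times.

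Base composition differs between these groups, and so density was also compared among 3′ UTRs of like GC content. In the middle of 5 GC groups, TGTANATA occurred 0.376 times per kb in higher genes and 0.171 times in genes within 2-fold, the reversed letters 0.164 and 0.139 times and ATTTA 1.66 and 1.59 times. In the lowest GC group the values were 0.460 and 0.305 for TGTANATA, 0.295 and 0.283 for the reversed letters and 3.22 and 3.26 for ATTTA. By number of TGTANATA matches, the median centred difference was -0.28 with 0 matches (8944 genes), 0.61 with 1 (2335), 1.19 with 2 (734) and 1.61 with 3 or more (370), while the median 3′ UTR went from 924 to 3889 nt. By number of matches of the reversed letters it was -0.16 with 0 (9803 genes), 0.54 with 1 (1944), 0.97 with 2 (461) and 1.15 with 3 or more (175), while the median 3′ UTR went from 989 to 4720 nt. Both counts thus rose with the difference, as did 3′ UTR length. In a count of all 4096 sequences of 6 letters, the highest ratios of density in higher genes to genes within 2-fold were those of GTATAT (1.76) and GTAAAT (1.73), each part of a form of TGTANATA. Within the middle GC group these 2 ranked 66 and 70. Among the 14 highest coding genes TGTANATA was found 10 times in Lnpep, 6 in Lrrc58, 5 in Bcl2l11, 4 in Gsk3b and Klhl28, 3 in Zfp871, 2 in Hook3, Tcf4 and Rnf152, 1 in Prkg1, Prrg1 and Slc6a14 and 0 times in Fam160b2 and Tmem47. The reversed letters were found more often than TGTANATA in Hook3 (6), Klhl28 (5), Zfp871 (4), Prkg1 (2) and Tmem47 (2), and at most 4 times in the others. The 12 coding genes at the low end had no TGTANATA in 3′ UTRs of 60 to 1044 nt, and the reversed letters once each in Pcolce and Retsat. A match is a description of letters and not of binding.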

How the data were processed

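RNA-seq libraries of 4 groups of 3 (TOTAL, INPUT, BO and IP) were analysed from the deposited tables, with groups and replicate numbers taken from the labels. The deposited repeat signal is an upper quartile normalized count per subfamily and library, which the authors made by aligning to mm10 (STAR 2.6.0c), placing multi-mapping reads with Telescope, collapsing loci into subfamilies and scaling in EBSeq. In every library 100% of values were whole multiples of 1 step, within a tolerance of 0.1 read, and reads were recovered from it. For genes and single loci the authors deposited DESeq2 1.24.0 tables of IP against each group, whose signal is 1 mean of normalized counts per group. Their log2 fold changes and p-values were not used, nor was the table with TOTAL. Counting tool and annotation for genes are not given in the sources used here. The 4 summary rows that name no gene (no feature, ambiguous and the like) held 36.9% of the summed BO mean and 29.6% of that of INPUT, and stayed out. Per-sample columns of no known sample numbered 0.

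Subfamilies whose mean over the 12 libraries reached 10 were fitted as log2(normalized count + 1), a scale that understates changes of low counts, with limma 3.58.1 in R 4.3.3 (1 fit of 4 groups, trend, Benjamini-Hochberg over 1180 subfamilies). Shares of reads were compared with the exact two-sided permutation test and cover counting of reads, not of molecules. The fit was tested on simulated counts for BO against INPUT over 1180 subfamilies, where 100% of those changed by a log2 of 2 or 3 were called and 1 of 980 unchanged ones. The unchanged ones had a median fitted log2 fold change of -0.17. The simulation gave all subfamilies the same dispersion and held no outlying library. No change near the 2-fold limit was simulated, so recovery there was not tested. Genes needed 4 means above 10, and differences were centred on the median gene. Symbols of 20707 of 20981 genes matched GENCODE M21, and lengths, GC content and 3′ UTRs are those of its transcripts.

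The design foresaw no test for genes, and 1 mean per group allows none. Named subfamilies were the 12 highest and 12 lowest called with a mean of at least 100, the 10 most counted and 7 that the study compares. Named genes were the 15 highest and 15 lowest with means above 100, Mael and Actb, and the extremes and 3 most abundant members of each list, and further members are named to account for counts. The alternatives were other pseudocounts, filters and scalings, edgeR 4.0.16 and DESeq2 1.42.0 on the recovered reads, a fit of the 2 groups only, a replicate block and each replicate left out, and, added after the values were seen, shares on a total without rRNA and small RNA repeats and a fit without BO replicate 3 and INPUT replicate 1. The members, the gene lists and the sequences searched were chosen with earlier results of these data known.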

Additional observations from a re-analysis of the deposited data

How the results depend on the processing

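No called subfamily changed direction under the alternatives run. Of the values of the 38 named subfamilies under them, 676 kept their side of the threshold and 8 lost a call, all of them of GSAT_MM (0.997 to 1.39) and U2 (-2.15 to -1.25). Subfamilies called higher and lower numbered 20 and 17 with a mean of at least 100 (TE 11 and 9), and 20 and 21 when scaled to the total over subfamilies (TE 11 and 8), where BO replicate 3 is mostly rRNA and 41 subfamilies had an adjusted p under 0.05. With a pseudocount of 10, 12 TE subfamilies were called lower. The count tests on the recovered reads called 26 and 41 (edgeR) and 28 and 40 (DESeq2). Leaving out 1 replicate at a time gave 26 to 35 higher and 29 to 34 lower, 17 to 23 and 15 to 22 among TEs. Without both BO replicate 3 and INPUT replicate 1, chosen after seeing the data, 38 and 39 were called, 28 and 26 of them shared with the fit of all libraries. The difference in rRNA share, 10.1 percentage points higher in BO, reversed to -6.87 without BO replicate 3. That in TE share, higher in BO, reversed to -1.02 points on the total without rRNA and small RNA repeats, chosen after seeing the data, because small RNAs then no longer count in the INPUT total. On that total the difference for LTR elements was -3.53 points without ERVB4_1B-I_MM-int. The total still held this subfamily, so its own rise accounts for part of that difference. Differences in share ranged from -23.5 to -22.0 points for small RNA, 3.14 to 26.2 for TEs, 3.93 to 13.5 for LTR elements, 0.256 to 1.54 for simple repeats and -6.87 to 18.6 for rRNA over single replicates left out.

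For genes, 1210 were over 2-fold higher and 4175 lower without centring, 809 and 5315 when scaled by summed means, and 1418 and 1203 with means above 100. The endothelial median was 0.22 with means above 100, where fewer markers qualified, against -1.10. The replicate block called 31 and 35 subfamilies, with every call of the unblocked fit kept. Same-numbered BO and INPUT libraries deviated together with correlations of 0.30, 0.06 and 0.56, and BO replicate 2 correlated best with INPUT replicate 1 (0.22). The main fit and the permutation tests did not take the numbers as pairs. Some repeats kept the order of replicates between groups. GSAT_MM had 2445, 1415 and 693 in BO and 1528, 896 and 442 in IP, though 657, 416 and 445 in INPUT. Whether same-numbered libraries shared a preparation is not stated in the labels and was not tested. Genes with 1 mean per group allow no leave-one-out or paired fit, and the depth behind their values is unknown.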
